A study of Mus musculus with 6 samples.

Results

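RNA of the Notch receptors, their ligands and their effectors was followed in cortical cells of mouse embryos from dams given saline or phenobarbital. This barbiturate strengthens signalling through GABA-A receptors. The genes were Notch1, Notch2, Notch3, Dll1, Dll3, Jag1, Hes1, Hes5, Nrarp and Lfng. They were measured by every probe on the array whose accession belonged to 1 of these 10 genes, which gave 13 probes of 55681, and the array's named probes stood for 20145 genes in all. Notch1, Notch2 and Dll3 had 2 probes each and the other 7 genes had 1. All 13 probes passed the filter on dim signals (well above background throughout 1 group or both) and were tested.

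Both groups came from C57BL/6N mice. The 3 phenobarbital samples came from dams injected intraperitoneally with 80 mg/kg of an 8 mg/mL solution, in doses 6 h apart on embryonic days 10 to 11, and the 3 control samples from dams that received saline. Embryos were taken at embryonic day 12 per the protocol, and at a slightly later stage per the sample labels. Cerebral neocortex was dissociated, the cells were plated on poly-ornithine and fibronectin, and RNA was isolated 4 h after plating. Nothing in the labels says that replicates are separate litters or cultures. The p-values thus rest on the spread among these 6 arrays, and that spread may be technical.

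Notch receptors are cell-surface proteins that are cut when a ligand on a neighbouring cell binds them. The freed intracellular part enters the nucleus, joins the DNA-binding protein Rbpj and switches on genes such as Hes1 and Hes5, whose products repress proneural genes. In the embryonic cortex this holds radial glia, the neural progenitors, as progenitors, while newly formed neurons and committed progenitors present Dll ligands to them.

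The samples are labelled as neural progenitor cells, and all 8 radial glia markers checked, such as Pax6 and Sox2, were well above background on every array. So were the markers of young neurons (6 of 6), of endothelium (8 of 8), of mural cells and meninges (8 of 8) and of red blood cells (5 of 5). Of all non-control spots, 62.8% to 68.7% per array were well above background. Detection alone thus does not show that a cell type was present. Control replicate 1 and the 3 phenobarbital arrays were on slide 1, while control replicates 2 and 3 were on slides of their own. Control replicate 2 stood apart, with a lowest correlation to its own group of 0.982 across tested probes, which are not independent replicates. Phenobarbital arrays were brighter before scaling, with 75th percentile signals of 1803 to 1862, against 1116 to 1291 on control arrays. Every value below is therefore a log2 signal relative to the 75th percentile of its own array, and a change is a change relative to that percentile. Levels of different genes are not ranked, because probes differ in their response.

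Of the 13 probes, 2 rose and 2 fell with phenobarbital (limma, adjusted p below 0.05), against 16.2% of all 34673 probes tested, 6.97% rising and 9.24% falling. The brighter probe of Notch1 and the probe of the ligand gene Jag1 fell, and the dimmer probe of Notch1 and the probe of the feedback inhibitor gene Nrarp rose. The dimmer Notch1 probe entered the test only through the phenobarbital group, in which it was higher, so its call adds no support to the count. The groups of arrays did not overlap for 7 of the 13 probes, against 44% of all probes: 4 lay higher with phenobarbital (13.4% of all probes did) and 3 lower (30.6%). The dimmer Notch1 probe is among the 4 higher ones and adds no support to this count either. The median log2 fold change was -0.10 for the 13 probes and -0.15 for all probes tested. Scaling moved the balance of calls over the array: rises made up 43% of calls here, 59.1% after quantile normalization, 62.7% after scaling to the median and 66.6% with the percentile over probes above background. With normexp background correction on median spot signals they made up 25.6%. The members had 3 rises and 2 falls after quantile normalization and 4 rises and 1 fall with the percentile over probes above background.

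**Figure D1:**
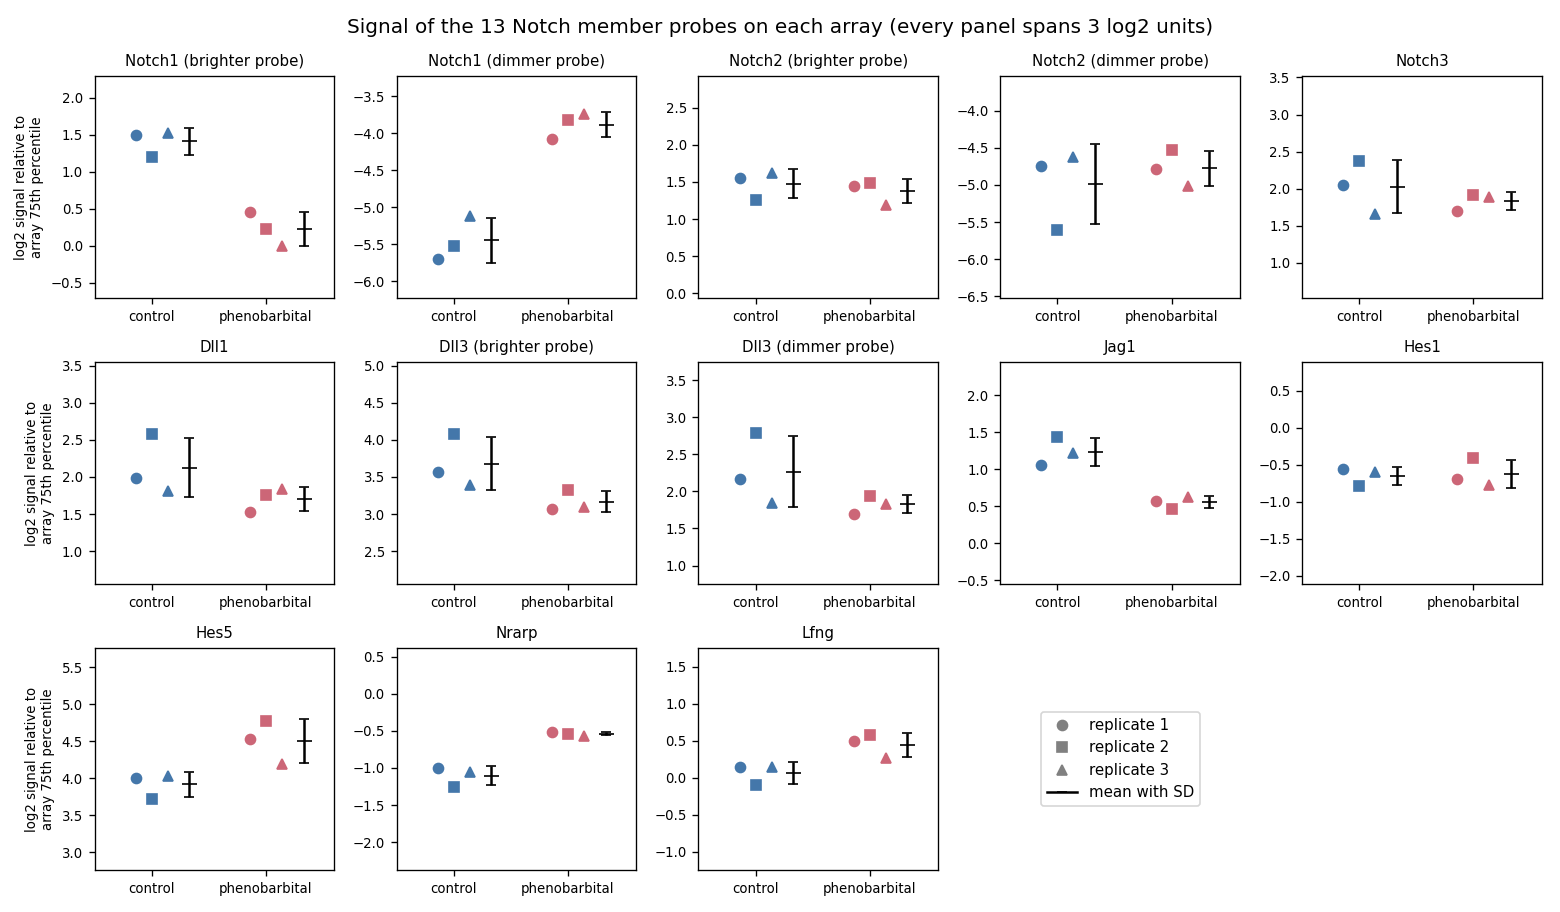
Log2 signal relative to the array's 75th percentile (vertical axis) for the 13 probes in control and phenobarbital samples, with 1 symbol per replicate and the mean with its SD beside each group. Every panel spans the same range, and the groups lie apart for both Notch1 probes, the brighter Dll3 probe, Jag1, Hes5, Nrarp and Lfng.

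Of the receptors, Notch1, the main Notch receptor of radial glia, gave opposite results on its 2 probes. The brighter probe (A_55_P2171897) read 1.50, 1.20 and 1.53 on the control arrays, in the order of their replicate numbers, and 0.45, 0.22 and -0.0059 on the phenobarbital arrays. All phenobarbital arrays lay below all control arrays. It fell by 1.19 ± 0.16 (SE, n = 3 per group; limma, adjusted p = 0.00924), to 0.440 of the control level, with a 95% interval of -1.57 to -0.80 on the log2 scale. The fall was also present in the unscaled signals, which were 2566 to 3639 in controls and 1795 to 2533 with phenobarbital. In such bulk samples fewer cells of a type and less RNA per cell cannot be told apart.

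The dimmer Notch1 probe (A_55_P2047168) read -5.70, -5.53 and -5.12 in the controls and -4.08, -3.83 and -3.75 with phenobarbital. Here all phenobarbital arrays lay above all control arrays. It was well above background on 2 of 3 control arrays and on all 3 phenobarbital arrays, so it passed the filter on dim signals through the group in which it was higher. In the fit it had 1.56 ± 0.18 (adjusted p = 0.00618), a size that rests in part on a control signal not well above background. Its unscaled signals were 24.1 to 34.6 in controls and 110 to 134 with phenobarbital. With normexp background correction, which adds an offset of 50, it had 0.31 and did not pass (adjusted p = 0.0505), and it gave no value when probes had to be above background on all arrays.

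Among 3980 genes with several tested probes, 44 had a probe that rose and another that fell, or 1.11%. Both probes carry the same RefSeq transcript accession, and where each lies in the transcript was not analysed here. Among 4541 probes within 0.5 of the dimmer probe's mean level, 4.43% rose and 5.51% fell. Among the 2806 probes as near to the brighter probe, 8.98% rose and 8.77% fell.

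Within slide 1, the log2 fold change against control replicate 1 alone was -1.27 for the brighter probe and 1.81 for the dimmer. With the slide as a block the brighter probe did not pass (adjusted p = 0.0570) and the dimmer did (0.0296). Leaving out any array in turn kept both calls, with -1.30 to -1.07 for the brighter probe and 1.44 to 1.73 for the dimmer. Because the dimmer probe entered the main test only through the phenobarbital group, in which it was higher, its passes add no support.

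By the rule fixed for likeness, the 5 gene symbols whose profile over the 6 arrays was nearest to the dimmer Notch1 probe, the member probe with the smallest p, were Cpt2, Usb1, Taok3, Etv4 and Podxl. Their Pearson's r ran from 0.995 to 0.996, all 5 rose (limma, adjusted p below 0.05), and 3.21% of probes with a gene symbol had an r above 0.95. The 6 points are the same arrays in 2 groups, so the likeness includes the group difference. Genes picked for likeness to a probe that rose will tend to rise, so their rises are no separate result.

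Notch2 and Notch3, the other receptors measured here, overlapped between groups. The brighter Notch2 probe read 1.55, 1.25 and 1.62 in controls and 1.45, 1.49 and 1.19 with phenobarbital. Its log2 fold change was -0.10 ± 0.15 (adjusted p = 0.670), with a 95% interval of -0.45 to 0.26. The dimmer Notch2 probe, above background on 2 of 3 control arrays, had 0.21 ± 0.28 (0.625), and its sign turned with normexp, with the slide as a block and without control replicate 2. Notch3, a receptor also known from the mural cells of vessels, read 2.05, 2.37 and 1.65 in controls and 1.69, 1.92 and 1.89 with phenobarbital. Its log2 fold change was -0.19 ± 0.20 (0.517), with a 95% interval of -0.66 to 0.28, and control replicates 2 and 3 were its highest and lowest arrays.

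Of the ligands, Jag1 fell, and all 4 ligand probes had a negative log2 fold change, as did 65.7% of all probes tested. Jag1 encodes a Serrate-type ligand with roles in both neural progenitors and vessels. It read 1.06, 1.43 and 1.23 in controls and 0.58, 0.46 and 0.62 with phenobarbital, so that every phenobarbital array lay below every control array. It fell by 0.68 ± 0.13 (adjusted p = 0.0235), to 0.623 of the control level. The unscaled signals overlapped, with 2684 to 3003 in controls and 2569 to 2771 with phenobarbital, so the fall is one relative to the rest of the array. With the percentile over probes above background it had -0.59 and did not pass (0.0538). Within slide 1 it had -0.50 (0.178 with the slide as a block), and without any 1 array other than control replicate 2 it did not pass (adjusted p = 0.0510 to 0.0851).

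Markers of vessels and meninges were lower in sum beside Jag1. Of 9 endothelial probes 3 fell and none rose, and of 8 probes of mural cells and meninges 5 fell and none rose. Over all probes tested, 9.24% fell and 6.97% rose. The summed scaled signal of the endothelial markers, as a multiple of the 75th percentile, was 82.1 to 87.9 in controls and 49.3 to 58.1 with phenobarbital. That of mural cells and meninges was 41.3 to 46.8 and 22.4 to 28.6. This last sum weighs Col3a1 and Col1a2 most, which fell, as did Pdgfrb, Foxc1 and Lum. The mural cell markers Rgs5, Kcnj8 and Abcc9 did not pass. They had -0.25 ± 0.44 (adjusted p = 0.716), -0.31 ± 0.29 (0.478) and -0.36 ± 0.15 (0.137). No marker gene of either list was below background on any array. The endothelial markers were not uniform: Pecam1 had 0.70 ± 0.23 (adjusted p = 0.0805), with every phenobarbital array higher, and Tek had 0.71 ± 0.52 (0.370), while the other 7 probes were negative. Their part in the fall of Jag1 was not tested.

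Dll1 and Dll3, the Delta-type ligand genes of committed progenitors and newborn neurons, did not pass. Dll1 encodes an activating ligand and was measured on 10 replicate spots, whose SD within an array was 0.04 to 0.06 on the log2 scale. It read 1.99, 2.58 and 1.82 in controls and 1.52, 1.76 and 1.83 with phenobarbital. The log2 fold change was -0.42 ± 0.22 (adjusted p = 0.212), with a 95% interval of -0.94 to 0.10. The spread between control arrays (SD 0.40) was thus far larger than that between spots, and control replicate 2 was the high array.

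Dll3 encodes a divergent ligand that acts inside the cell that makes it. Its brighter probe read 3.57, 4.08 and 3.39 in controls and 3.07, 3.33 and 3.10 with phenobarbital. These groups did not overlap, with a gap of 0.06 between the nearest arrays. The log2 fold change was -0.52 ± 0.20 (adjusted p = 0.120), with a 95% interval of -0.99 to -0.04 that is not adjusted over probes. The dimmer probe had -0.44 ± 0.24 (0.242). Without control replicate 2 the log2 fold changes were -0.20 for Dll1 and -0.32 and -0.18 for the probes of Dll3.

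Markers of young neurons and intermediate progenitors, the cells that carry Delta ligands, were lower in sum beside them. Of 10 neuronal probes 4 fell and none rose, and of 5 intermediate progenitor probes 2 fell and none rose. Over all probes tested, 9.24% fell and 6.97% rose. The summed neuronal signal was 150.3 to 171 in controls and 102 to 117 with phenobarbital, and that of intermediate progenitors 55.0 to 62.3 and 34.3 to 41.3. This last sum weighs Insm1 most, which fell by 0.89 ± 0.12 (adjusted p = 0.00847). The dimmer Eomes probe fell too, the brighter one and Mfap4 were negative without passing, and Btg2 had 0.0080 ± 0.11 (0.967). Of the 10 neuronal probes 9 were negative, but the 2 probes of Map2 had only -0.0039 ± 0.17 and 0.019 ± 0.14. None of these marker genes was below background on any array. The part of these cells in the Dll1 and Dll3 values was not tested.

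Lfng encodes the Lunatic fringe glycosyltransferase, which modifies Notch so that it responds more to Delta than to Jagged ligands. It read 0.14, -0.10 and 0.15 in controls and 0.50, 0.57 and 0.26 with phenobarbital. All phenobarbital arrays lay above all control arrays, with a gap of 0.11. The log2 fold change was 0.38 ± 0.13 (adjusted p = 0.0990), with a 95% interval of 0.06 to 0.71. It passed in 1 of 19 alternatives, with the percentile over probes above background (0.48, adjusted p = 0.0484). Within slide 1 it had 0.30.

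Of the effectors, Nrarp rose, Hes5 was higher on every phenobarbital array without passing, and Hes1 overlapped. Nrarp is a Notch target whose product binds the Notch intracellular part and limits its activity. It read -1.003, -1.25 and -1.05 in controls and -0.51, -0.53 and -0.56 with phenobarbital. Its phenobarbital arrays lay close together (SD 0.025, against 0.13 in controls) and above all controls. It rose by 0.57 ± 0.11 (adjusted p = 0.0245), 1.48-fold, and its unscaled signals were 469 to 644 and 1221 to 1300. Within slide 1 it had 0.47 (0.181 with the slide as a block), and without any 1 array other than control replicate 2 it did not pass (adjusted p = 0.0609 to 0.0959).

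Hes5, a transcriptional repressor and a Notch target of radial glia, read 4.01, 3.72 and 4.03 in controls and 4.53, 4.78 and 4.20 with phenobarbital. The groups did not overlap, with a gap of 0.17. The log2 fold change was 0.58 ± 0.18 (adjusted p = 0.0708), 1.50-fold, with a 95% interval of 0.15 to 1.01. It passed in 4 of 19 alternatives: after quantile normalization (0.77, adjusted p = 0.0213), with normexp (0.61, 0.0309), with an intensity trend in the variance prior (0.58, 0.0418) and with the percentile over probes above background (0.68, 0.0449). Within slide 1 it had 0.49.

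Hes1, a related repressor that other pathways than Notch also control, read -0.55, -0.78 and -0.60 in controls and -0.70, -0.41 and -0.77 with phenobarbital. The log2 fold change was 0.02 ± 0.14 (adjusted p = 0.933), with a 95% interval of -0.31 to 0.35. That interval and the one of Hes5 overlap, and whether Hes1 and Hes5 differed in their change was not tested.

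Beside these effectors, 1 of 9 radial glia probes rose and 1 fell, against 6.97% rising and 9.24% falling over all probes tested. The summed scaled signal of the radial glia markers was 408 to 434 in controls and 329 to 372 with phenobarbital. This sum weighs the strongest signals most, here that of Vim, which fell by 0.44 ± 0.10 (adjusted p = 0.0375), whereas Emx2 rose by 0.77 ± 0.20 (0.0485) and Lhx2 had 0.0053 ± 0.12 (0.980). All 6 probes of the choroid plexus, an epithelium that borders the cortex, rose, against 6.97% of all probes tested. The summed signal of the choroid plexus was 1.49 to 3.52 in controls and 11.2 to 22.2 with phenobarbital. Of its 5 marker genes, 4 were above background on every array and Kcne2 was below it on every control array and tested only through the phenobarbital group. Red blood cell markers moved the other way, with 5 of 6 probes falling, against 9.24% of all probes tested. Their summed signal was 812 to 938 in controls and 538 to 543 with phenobarbital. The part of these cells in the Nrarp, Hes5 and Lfng values was not tested.

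**Figure D2:**
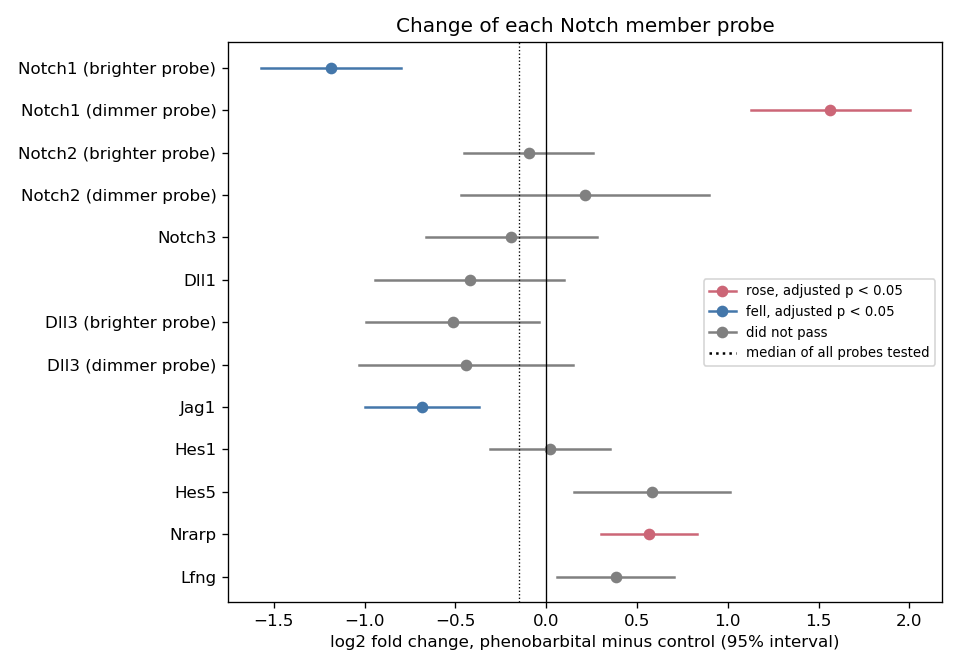
Log2 fold change, phenobarbital minus control, of each of the 13 probes (points) with its 95% interval (bars, not adjusted over probes). The dotted line is the median of all probes tested, -0.15, and the 4 coloured probes passed the test: both Notch1 probes in opposite directions, Jag1 downward and Nrarp upward.

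The 3 genes downstream of or modifying Notch whose arrays did not overlap upward, Nrarp, Hes5 and Lfng, are shown by the 250 bases before their start site, because Notch acts on targets through Rbpj, whose known preferred site holds GTGGGAA. The sequences are from RefSeq (GRCm38.p6), 5′ to 3′ on the gene's strand, with GTGGGAA on either strand in capitals. The windows are chr2:25180508-25180757 for Nrarp, chr4:154960673-154960922 for Hes5 and chr5:140607091-140607340 for Lfng, all on the plus strand.
Nrarp: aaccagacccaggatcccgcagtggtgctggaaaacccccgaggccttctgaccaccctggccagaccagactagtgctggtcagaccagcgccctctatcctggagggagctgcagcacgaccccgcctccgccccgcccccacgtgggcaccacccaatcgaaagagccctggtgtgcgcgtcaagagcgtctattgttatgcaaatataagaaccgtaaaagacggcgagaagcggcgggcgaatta
Hes5: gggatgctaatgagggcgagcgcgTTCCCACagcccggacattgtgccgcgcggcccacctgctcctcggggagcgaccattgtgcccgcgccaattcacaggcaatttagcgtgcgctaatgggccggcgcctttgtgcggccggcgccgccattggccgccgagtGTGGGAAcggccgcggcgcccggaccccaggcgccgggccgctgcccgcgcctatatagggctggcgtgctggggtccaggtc
Lfng: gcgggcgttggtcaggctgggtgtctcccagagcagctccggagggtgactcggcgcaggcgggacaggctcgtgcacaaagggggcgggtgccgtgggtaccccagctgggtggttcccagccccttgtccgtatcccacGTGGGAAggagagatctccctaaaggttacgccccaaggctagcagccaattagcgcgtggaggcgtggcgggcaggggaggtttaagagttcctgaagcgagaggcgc

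The Hes5 window held GTGGGAA at 83 bases before the start site and, on the other strand, at 226 bases. The Lfng window held it at 109 bases, and the Nrarp window did not hold these letters. Promoter windows were at hand for 9 of the 10 genes, 10 windows in all, and only those of Hes5 and Lfng held the motif. Hes1 had no window, so whether it holds the motif was not searched. Of all 32851 windows of this length, 5.42% held it. The shorter TGGGAA, which lies inside GTGGGAA, was held by the same 2 members and by 21.6% of all windows. A match describes the letters and is not a site shown to be bound.

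Control replicate 2 was at an end of the control range, highest or lowest, for 12 of the 13 probes, and control replicate 3 for 10. It was the highest control for Notch3, Dll1, both probes of Dll3 and Jag1, 5 probes in all. It was the lowest for the brighter Notch1 probe, both probes of Notch2, Hes1, Hes5, Nrarp and Lfng, 7 in all. Without it, the calls over the array numbered 5880 and those among the members, the dimmer Notch1 probe included, stayed at 4.

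The other pathway genes came from a list of 56 genes, of which 54 had a probe matched by accession and 52 had a tested one. Of their 72 tested probes, 2 rose, 5 fell and 65 did not pass, which is 9.72% against 16.2% of all probes tested. Their median log2 fold change was -0.17, and their groups did not overlap for 52.8% of probes, against 44% of all.

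Of the other receptor and ligands, none of 6 probes passed. The brightest, of Dlk1, a non-canonical ligand, had -0.64 ± 0.23 (adjusted p = 0.0996). Dll4, the Delta-type ligand of endothelium, is named after its values were seen. It read -2.20, -3.79 and -2.46 in controls and -1.57, -1.67 and -1.35 with phenobarbital, 1.29 ± 0.41 (0.0754), with the phenobarbital arrays all higher. Dlk2 had no probe matched by accession.

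Of the glycosyltransferases, 1 of 7 probes rose, against 6.97% of all probes tested. Poglut1, which adds glucose to the EGF repeats of Notch, read -0.27, -0.29 and -0.34 in controls and 0.57, 0.49 and 0.84 with phenobarbital. It rose by 0.93 ± 0.13 (adjusted p = 0.00924), and its groups did not overlap.

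Of 12 probes for proteases that cut Notch, 1 rose and 1 fell, or 16.7% called, against 16.2% of all probes tested. Adam10, the enzyme that makes the first ligand-dependent cut, fell by 0.50 ± 0.13 (adjusted p = 0.0463). Ncstn, nicastrin, a subunit of the gamma-secretase complex that makes the next cut, rose by 1.10 ± 0.23 (0.0307).

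Of 17 probes for trafficking proteins and ubiquitin ligases, 2 fell. Numbl, a relative of the Notch inhibitor Numb, fell by 0.47 ± 0.11 (adjusted p = 0.0410), and the ubiquitin ligase gene Nedd4 by 0.46 ± 0.12 (0.0461). The log2 fold change was negative for 15 of the 17, against 65.7% of all probes tested, and 11.8% were called, against 16.2%.

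The nuclear complex had no call among 23 tested probes. Its brightest probe, of the deacetylase gene Hdac1, had -0.14 ± 0.17 (adjusted p = 0.575). Rbpj, named for its role, had -0.10 ± 0.12 (0.589) and -0.12 ± 0.13 (0.558) on its 2 probes.

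Among the other Hes and Hey factors, 2 of 4 tested probes fell, against 9.24% of all probes tested. All 4 log2 fold changes were negative, as were those of 65.7% of all probes tested. Heyl, a Hey-family repressor and Notch target, read -1.38, -0.94 and -1.33 in controls and -1.96, -1.86 and -1.98 with phenobarbital, and fell by 0.71 ± 0.15 (adjusted p = 0.0271). Hes7, known from the segmentation clock, read 1.68, 2.01 and 1.86 in controls and 1.34, 1.37 and 1.26 with phenobarbital, and fell by 0.53 ± 0.12 (0.0362). Both had groups that did not overlap, with the phenobarbital arrays lower, as 30.6% of all probes tested did. Hes3 was not well above background on any array, and Hey2 was so on 1 of 3 control and 2 of 3 phenobarbital arrays, so neither was tested. The part of the vessel and meninges cells, whose marker values are given beside Jag1, was not tested.

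None of the 3 proneural factor probes passed. The brightest, of Neurog2, the main proneural factor of the dorsal cortex, had 0.01 ± 0.20 (adjusted p = 0.977). Over the 72 pathway probes, the count of calls was 2 with the percentile over probes above background, both of them rises, and 1 with the slide as a block.

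**Figure D3:**
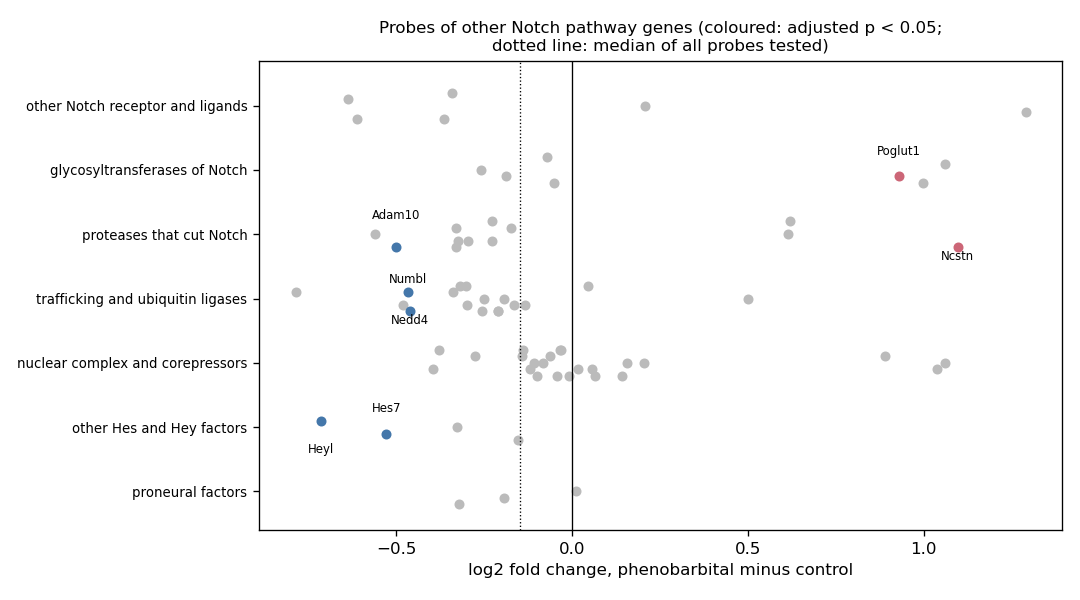
Log2 fold change, phenobarbital minus control, of the 72 tested probes of other Notch pathway genes, 1 point per probe, grouped by role (vertical position within a group has no meaning). The 7 named and coloured probes passed the test, 2 above and 5 below zero, and the dotted line is the median of all probes tested, -0.15.

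**Figure D4:**
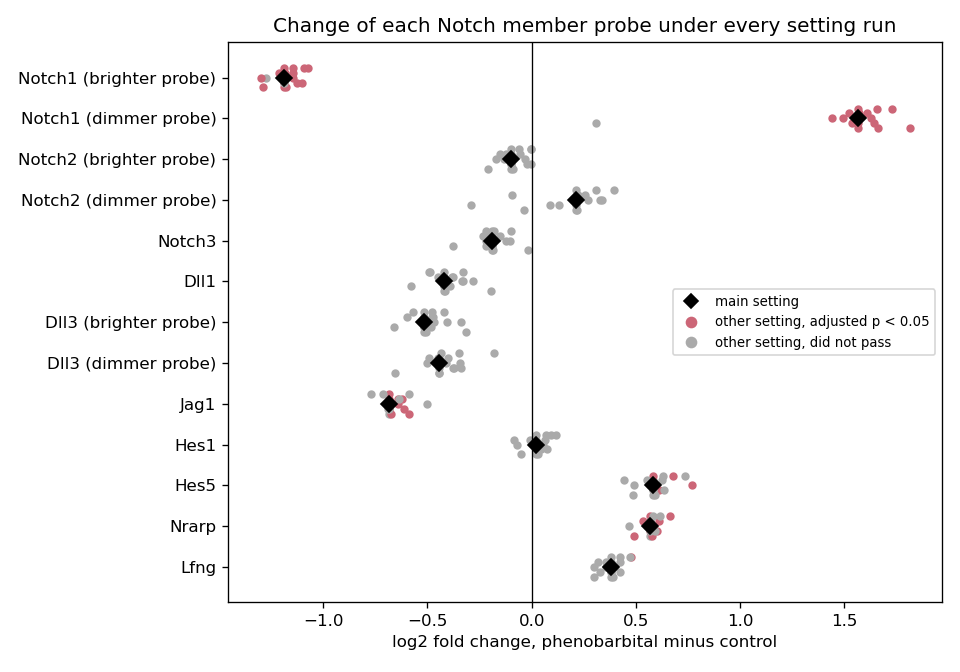
Log2 fold change of each of the 13 probes under the main setting (diamonds) and under each alternative that could be run (circles, coloured where the adjusted p was below 0.05). The Notch1 probes stayed on opposite sides of zero, the dimmer probe falling to 0.31 with normexp, while Hes1 and the dimmer Notch2 probe lay on both sides.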

How the data were processed

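Per the labels' protocols, 0.2 µg of RNA per sample was hybridised, as Cy3-labelled target, on Agilent arrays read in 1 colour. The deposited intensity values came from Agilent Feature Extraction 10.7.3.1 per the file headers (10.7 per the submitters' processing notes), background-subtracted and detrended within each array. The authors' value table holds log2 values. After a scaling factor per array, their differences between arrays lay within 1.90e-06 of those of the processed signals for 99% of comparisons, which settles scale and direction. The constant on which each probe is centred there is unknown, and the table's column medians were 0.08, 0.10 and 0.09 in controls and -0.02, -0.09 and -0.08 with phenobarbital.

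Here, log2 processed signals were set relative to each array's 75th percentile over 59305 non-control spots. Outlier spots (98 to 198 per array) were set to missing, and no spot was saturated. Replicate spots were averaged. Probes were named through RefSeq accessions (GRCm38.p6, names and promoter sequences only), which matched 26582 of 55681 probes. Probes entered the test when every array of either group gave a signal well above background and both groups had 2 or more values. A probe with several spots counted as above background where at least 0.5 of them were. Every such probe was compared by lmFit and eBayes (limma 3.58.1, R 4.3.3), two-sided, with Benjamini-Hochberg adjustment over all 34673 and a threshold of 0.05. Tested on simulated data for this comparison (34673 probes), the fit found 53 of 100 probes given a log2 change of 1, 83 of 100 given a change of 2, and 5 unchanged probes. The simulated noise was independent between probes, with no slide effect and no other probe changed, so these rates may not hold for the real arrays. Precision is limited by the number of arrays.

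The members, lists, named-gene rule and settings were chosen with earlier results of these data known. Named were all members, every pathway gene with a called probe, the brightest gene of pathway lists without a call, and the 5 genes most like the member probe of smallest p. Alternatives changed the background correction, scaling, filters, probe choice, variance prior, source of values and blocks, or left out 1 array. The normexp alternative used median spot signals, not used elsewhere.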

Additional observations from a re-analysis of the deposited data

How the results depend on the processing

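Over the array 5618 probes were called. The count was 9201 with normexp, 3640 after scaling to the median, 1929 with no filter on dim probes, 577 with the replicate block, 1094 with the slide as a block, and 1374 to 5880 without 1 array. It was 1374, 2488, 1418, 1420 and 1850 without control replicates 1 and 3 and phenobarbital replicates 1, 2 and 3. The members had 4 calls, with 2 with no filter on dim probes, 1 with the replicate block and 1 with the slide as a block, and 2 to 4 without 1 array. These counts include the dimmer Notch1 probe. With either block it was the only member called, and its call adds no support. The 7 pathway calls were 12 with normexp, 3 after quantile normalization, 3 after scaling to the median, 2 with the percentile over probes above background, 1 with no filter, 12 with an intensity trend, 0 with the replicate block, 1 with the slide as a block, 2 with it as a random block, and 1 to 9 without 1 array. The labels do not say whether same-numbered samples were handled in pairs. Same-numbered arrays' deviations correlated at 0.06, -0.16 and -0.32, and those of differently numbered arrays at -0.20 to 0.30. With 3 arrays per group these values cannot settle whether the samples were paired. With the replicate block the dimmer Notch1 probe passed (adjusted p = 0.0387), and the brighter (0.0544), Jag1 (0.106) and Nrarp (0.110) did not.

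Signs turned for Hes1, with -0.072 with the slide as a block, -0.0097 with it as a random block and -0.087 to 0.093 without 1 array. They also turned for the dimmer Notch2 probe, with -0.29 with normexp, -0.038 with the slide as a block and -0.10 to 0.40 without 1 array. The other 11 member probes kept their direction in every setting that could test them, which is fixed for groups that do not overlap when an array is left out. The cause of these shifts was not tested. The dimmer probes of Notch1 and Notch2 gave no value with 1 probe per gene or with probes above background on all arrays. Signal over background limits the same 2 probes, each below it on 1 control array.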
